A study of Mus musculus with 3 samples.

Results

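The 9 secreted angiogenic factors *Vegfa*, *Vegfb*, *Vegfc*, *Pgf*, *Angpt1*, *Angpt2*, *Angptl2*, *Angptl4* and *Adm* were taken by gene symbol from the 31053 genes of the count tables, and all 9 had a row. They were followed in the stromal cells and in the macrophages of ectopic masses collected on day 5 after subcutaneous injection of Matrigel, a basement membrane gel, into CD-1 female mice of 6 to 8 weeks. Between Vehicle stromal cells, which came from masses with BMP2, and Matrigel-only ones, *Angpt1* was higher and *Angptl4* lower by more than 2-fold. *Angpt1* passed the filter on low values there only through its Vehicle level. *Vegfa* was 1.93-fold higher, *Angptl2* 1.55-fold and *Pgf* 1.30-fold higher, and *Adm* 1.54-fold lower, all short of 2-fold. With palovarotene added, *Vegfa*, *Pgf* and *Adm* in the stroma as a whole stood below both other groups, while *Angpt1*, *Angptl2* and *Angptl4* were close to their Matrigel-only levels. In stromal cells with the progenitor gene *Pi16*, however, *Pgf* was not lower in Palo than in Vehicle. *Vegfa* was the only one of the 9 that passed the filter on low values in macrophages and differed there by more than 2-fold, although in Matrigel-only and Palo its share of macrophages was not above that in cells with T or NK cell genes.

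New vessels grow when endothelial cells receive secreted signals from the cells around them. The VEGF family (*Vegfa*, *Vegfb*, *Vegfc*, *Pgf*) acts through the tyrosine kinase receptors encoded by *Flt1*, *Kdr* and *Flt4* with neuropilins as co-receptors, and the angiopoietins act through the TIE2 receptor encoded by *Tek*. Adrenomedullin (*Adm*) signals through the *Calcrl* receptor joined to a RAMP protein, and *Vegfa* and *Adm* are classical targets of the hypoxia-inducible factors (HIF). In BMP2-driven ectopic bone, cartilage forms without vessels and is later invaded by them.

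Each of the 3 groups was 1 droplet single-cell library into which the cells of that group's masses, released with dispase, were combined. The Matrigel-only masses had no recombinant human BMP2 and their mice were given nothing by mouth. The Vehicle masses held BMP2 and the mice received corn oil with DMSO daily. The Palo masses held BMP2 and the mice received palovarotene, an agonist of the retinoic acid receptor RAR gamma, at 4 mg/kg daily by gavage. The Matrigel-only group therefore differed from the other groups in both the BMP2 and the daily gavage, and the effects of the 2 cannot be told apart. With 1 library per group, there was no replicate check on any difference below and no test between groups could be made. Intervals are exact 95% limits that cover counting error only.

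The libraries held 9249 Matrigel-only, 6065 Vehicle and 7905 Palo barcodes with 44252421, 46317250 and 46901673 unique molecular identifiers (UMIs), and pairs of libraries shared between 8 and 17 barcode sequences. After filters on detected genes and mitochondrial UMIs, 8728, 5478 and 7297 cells were left. Cells with at least 1% of their UMIs from *Col1a1*, *Col1a2*, *Col3a1*, *Dcn* and *Lum* were called stromal, and they numbered 2085 (Matrigel-only), 1373 (Vehicle) and 1184 (Palo). Cells below that limit with *Csf1r* or *C1qa* were called macrophages, and there were 5812, 3253 and 5661. All 7 stromal markers and all 8 macrophage markers were found in both classes, and each list includes genes that define its class. In Matrigel-only, Vehicle and Palo the stromal list summed to 76133, 53763 and 85995 UMIs per 1000000 UMIs of the class (written CPM) in stroma. In macrophages it summed to 512, 557 and 349 CPM. The macrophage list summed to 12912, 10772 and 11578 CPM in macrophages and to 487, 154 and 331 CPM in stroma. The Vehicle stromal cells were split by *Acan*, the gene of the cartilage proteoglycan aggrecan, into 779 Acan-positive and 594 Acan-negative cells, whereas *Acan* was detected in 1 Matrigel-only and 4 Palo stromal cells. The summed level of 7 chondrocyte markers was 7576 CPM in Acan-positive and 398 CPM in Acan-negative Vehicle cells, against 73.5 CPM in Matrigel-only and 120 CPM in Palo stroma. Granulocyte, lymphocyte and basophil markers in the macrophage class summed to 107, 32.5 and 23.4 CPM in Vehicle. They summed to 38.4, 3.93 and 0.246 CPM in Matrigel-only and to 33.5, 2.44 and 0.109 CPM in Palo. Between 1% and 2% matrix UMIs lay 38, 99 and 8 cells of the 3 libraries, and 56, 52 and 10 lay just below the limit, within the upper part of the range below 1%.

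Promoter sequence from RefSeq (GRCm38.p6, the mm10 build) matched 6 of the 9 genes with 8 promoters, and *Angpt1*, *Angpt2* and *Angptl4* were not matched. The 250 bases before each start were searched on both strands for the HIF core motif, written as ACGTG or GCGTG, which 38.6% of 32851 such windows of the genome held. The motif was present in 4 of the 8 windows, which belonged to *Vegfa*, *Vegfb*, *Pgf* and *Adm*. The *Vegfa* match was at a second start inside the gene, 7206 bases from its 5' end, and the window nearest that end had none. The 3 windows below are shown because *Vegfa*, *Pgf* and *Adm* were the factors more than 2-fold higher in cells rich in HIF target genes in both stromal classes and in the macrophages of the Vehicle library, as described below. Each is written 5' to 3' on the strand of the gene with the motif, in either orientation, in capitals. A match is a description of the letters only, and no match says only that the letters are absent from that window.
Vegfa, chr17:46032378-46032627, minus strand, no match: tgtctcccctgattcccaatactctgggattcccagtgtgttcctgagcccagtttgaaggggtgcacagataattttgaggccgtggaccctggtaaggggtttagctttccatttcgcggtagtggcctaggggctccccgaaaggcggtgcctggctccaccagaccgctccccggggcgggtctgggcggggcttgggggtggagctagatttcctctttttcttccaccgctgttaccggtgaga
Pgf, chr12:85177314-85177563, minus strand, 1 match at 124 bases before the start: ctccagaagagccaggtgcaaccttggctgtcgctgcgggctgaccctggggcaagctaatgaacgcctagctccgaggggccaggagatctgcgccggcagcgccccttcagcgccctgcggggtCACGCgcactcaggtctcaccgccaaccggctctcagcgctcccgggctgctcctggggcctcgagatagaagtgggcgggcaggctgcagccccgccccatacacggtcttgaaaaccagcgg
Adm, chr7:110627407-110627656, plus strand, 2 matches at 90 and 54 bases before the start: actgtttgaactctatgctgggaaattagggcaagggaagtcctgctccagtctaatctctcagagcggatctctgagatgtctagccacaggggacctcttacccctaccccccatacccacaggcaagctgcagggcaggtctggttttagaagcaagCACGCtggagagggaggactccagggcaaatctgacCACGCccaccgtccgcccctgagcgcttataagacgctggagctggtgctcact

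Levels are given as CPM, computed from the summed UMIs of a gene and all UMIs of the same class of cells. CPM values were read across groups within a gene, not between genes. A gene was called different in a comparison when its CPM ratio was at least 2-fold either way and its mean over the libraries was at least 5 CPM. For the 4 stromal comparisons 8 of the 9 factors passed this filter and *Angpt2* did not. Between libraries *Angpt1* passed it, with a mean of 8.84 CPM, only through Vehicle. Its level was 20.6 CPM there, against 3.04 CPM in Matrigel-only and 2.91 CPM in Palo. Its place in the counts for comparisons with Vehicle therefore rests on the group where it was high. The comparisons were not independent, since the Vehicle and the Matrigel-only libraries each entered more than 1 of them.

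Between Vehicle and Matrigel-only stroma, 2 of the 8 factors were past 2-fold, *Angpt1* higher and *Angptl4* lower, where 14.5% of the 10311 genes tested were past 2-fold. Between Palo and Vehicle stroma, 4 of 8 were past 2-fold, with *Vegfa*, *Pgf* and *Angpt1* lower and *Angptl4* higher, against 12.0% of 10311 genes. Palo stroma differed from Matrigel-only stroma in 3 of 8, *Vegfa*, *Pgf* and *Adm*, all lower, against 3.05% of 10301 genes. Within the Vehicle library, *Angpt1* was higher and *Vegfc* lower in Acan-positive than in Acan-negative cells, which was 2 of 8 against 6.65% of 10115 genes. The median log2 ratio of the 8 factors in these comparisons, in the same order, was 0.17, −0.75, −0.22 and −0.24, and that of all genes tested was −0.04, 0.02, −0.03 and −0.01.

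**Figure D1:**
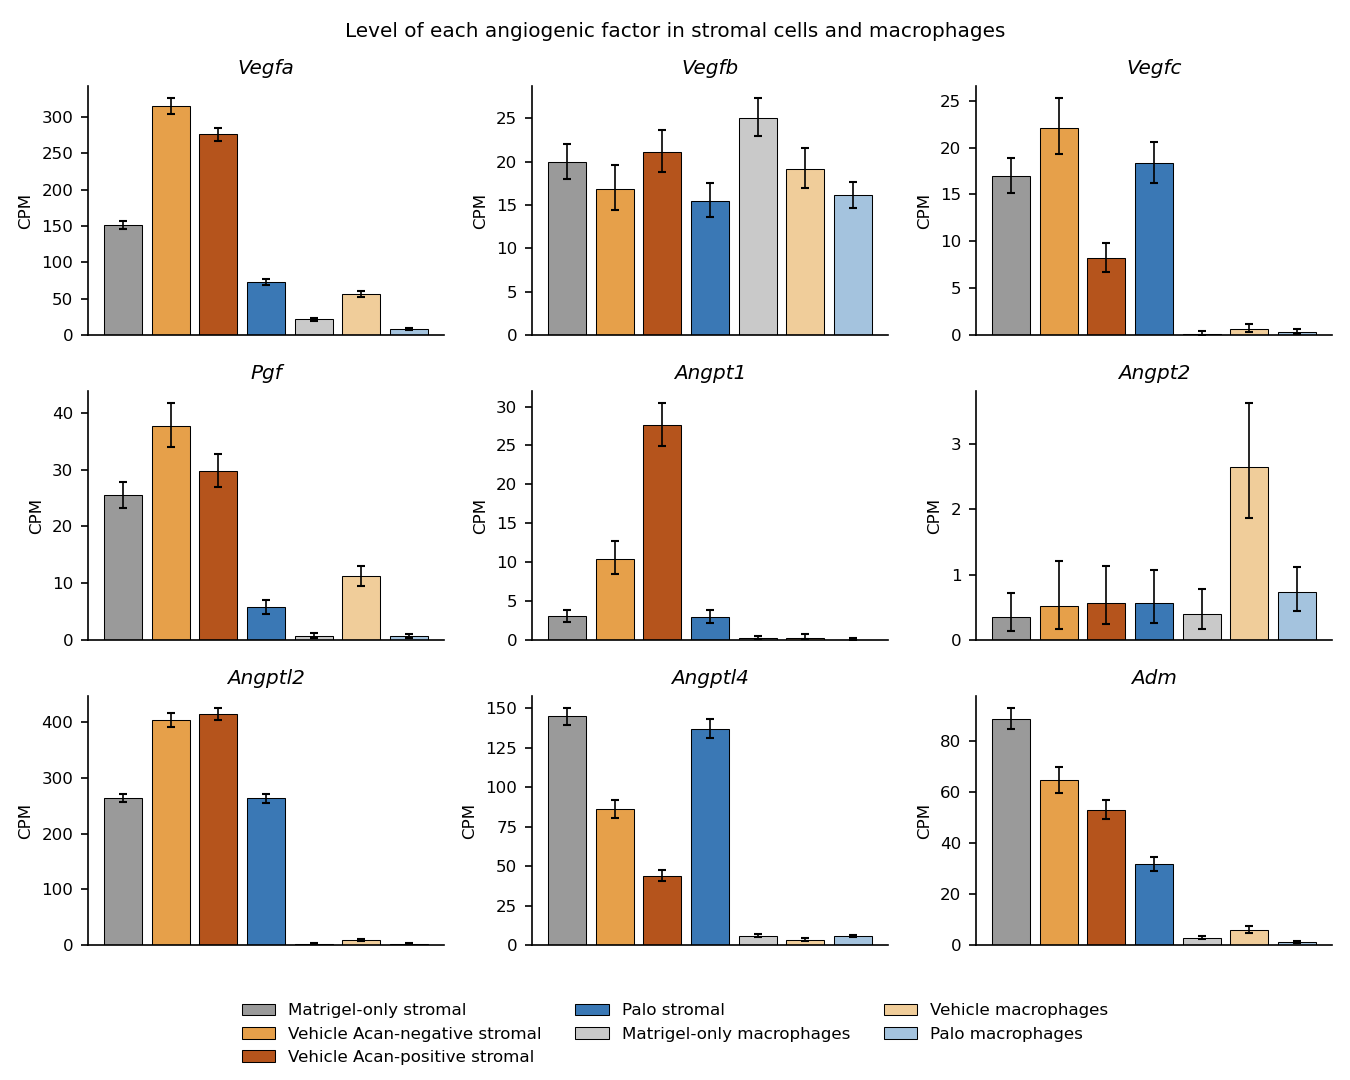
Level of each of the 9 factors in CPM (linear axes from 0, 1 panel per factor) in the 4 stromal classes and the macrophages of the 3 libraries, with error bars for the exact 95% Poisson interval, which covers counting error only. *Vegfa* was highest in the Vehicle stromal classes, at 315 and 276 CPM, and lowest among stromal groups in Palo, at 72.8 CPM.

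*Vegfa* (chr17:46016993-46032369, minus strand, mm10) encodes the main vessel growth factor of the family. Its level was 151 CPM in Matrigel-only stroma (95% interval 146 to 157, 3030 UMIs), 292 CPM in Vehicle stroma (285 to 299, 6890 UMIs) and 72.8 CPM in Palo stroma (68.7 to 77.2, 1153 UMIs). The 3 intervals did not overlap, with Vehicle highest and Palo lowest. The Vehicle level was 1.93-fold that of Matrigel-only (log2 ratio 0.95, 0.89 to 1.01), just short of the 2-fold limit. The Palo level was 4.01-fold lower than Vehicle (log2 −2.00, −2.09 to −1.91) and 2.08-fold lower than Matrigel-only (log2 −1.05, −1.15 to −0.95). Both classes of Vehicle stroma shared the high level, with 315 CPM in Acan-negative and 276 CPM in Acan-positive cells. The Acan-negative cells by themselves stood 1.06 above Matrigel-only and 2.11 above Palo on the log2 scale.

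The share of stromal cells with a *Vegfa* UMI was 52.9% for Matrigel-only, 75.7% for Vehicle and 50.2% for Palo. Cells differed in depth, with medians of 9082, 17114 and 12955 UMIs per stromal cell, so that each cell was also thinned to 3100 UMIs, which left out 207, 70 and 54 shallower cells. Thinned shares were 29.6% (Matrigel-only), 44.9% (Vehicle) and 18.8% (Palo), in the order of the CPM values. As a rough measure of free RNA, cells below the matrix limit with at least 2 UMIs of T or NK cell genes were taken. These lymphocyte-marker cells numbered 99, 267 and 79, with medians of 1430, 2142 and 2094 UMIs. Of them, 88, 234 and 69 had no macrophage marker. They had *Vegfa* in 14.2%, 3.02% and 1.70% after thinning to 1400 UMIs. At that same depth stromal shares were 16.0%, 27.9% and 9.39%. In Matrigel-only the stromal share was close to that of the lymphocyte-marker cells, of which 51 were deep enough to count. The stromal cells of that library nevertheless held 85.4% of the *Vegfa* UMIs, with 47.4% of all UMIs.

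*Pgf* (chr12:85166635-85177790, minus strand), placental growth factor, binds *Flt1* but not *Kdr*. It was measured at 25.4 CPM in Matrigel-only stroma (23.3 to 27.7), 33.0 CPM in Vehicle (30.7 to 35.4) and 5.75 CPM in Palo (4.63 to 7.06). Palo was 5.74-fold below Vehicle (log2 −2.52, −2.85 to −2.21) and 4.43-fold below Matrigel-only (log2 −2.15, −2.48 to −1.82), while Vehicle and Matrigel-only differed by a log2 ratio of 0.38. With 5 CPM added to both groups, the 2 Palo ratios were −1.82 and −1.50. The *Pgf* UMIs came from few cells. In Vehicle stroma 1.68% of the cells held 50% of them and the highest cell had 61 UMIs, against 18 in Matrigel-only and 6 in Palo. Shares of cells with a UMI were 10.2%, 11.7% and 5.49%, and 4.96%, 5.48% and 1.64% after thinning to 3100 UMIs, so that the Vehicle and Matrigel-only shares had overlapping intervals and the Palo share was lowest.

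*Vegfb* (chr19:6982473-6987651, minus strand), a ligand of *Flt1* linked to lipid uptake and vessel survival, was the steadiest of the VEGF ligands. It stood at 19.95 CPM in Matrigel-only, 19.4 CPM in Vehicle and 15.5 CPM in Palo stroma, with log2 ratios of −0.04 (−0.24 to 0.15) for Vehicle over Matrigel-only and −0.32 (−0.55 to −0.10) for Palo over Vehicle. In the order of the 7 groups of cells (4 stromal, 3 macrophage), each *Vegfb* interval overlapped that of its neighbour. The ends of the order did not overlap, at 23.0 to 27.4 CPM in Matrigel-only macrophages and 13.6 to 17.5 CPM in Palo stroma. For Palo over Matrigel-only macrophages the log2 ratio was −0.64 (−0.83 to −0.45), where the median of all genes was −0.17. *Vegfc* (chr8:54077606-54187096, plus strand), which signals through *Flt4* and is best known for lymphatic growth, was 17.0 CPM in Matrigel-only, 13.9 CPM in Vehicle and 18.3 CPM in Palo stroma. Its difference lay inside the Vehicle library, at 22.1 CPM in Acan-negative cells (19.3 to 25.3) and 8.19 CPM in Acan-positive cells (6.75 to 9.84), 2.70-fold apart. The Acan-negative level was 0.38 above Matrigel-only on the log2 scale and the Acan-positive level lower, with a log2 ratio of −1.05.

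*Angpt1* (chr15:42424723-42676977, minus strand) encodes the TIE2 agonist that stabilises vessels. Its stromal level was 3.04 CPM in Matrigel-only (2.33 to 3.91, 61 UMIs), 20.6 CPM in Vehicle (18.8 to 22.5, 485 UMIs) and 2.91 CPM in Palo (2.13 to 3.88, 46 UMIs). Vehicle was 6.76-fold above Matrigel-only (log2 2.76, 2.37 to 3.17) and 7.08-fold above Palo, and the Matrigel-only and Palo intervals overlapped (log2 −0.07, −0.65 to 0.51). With 5 CPM added to both groups, the log2 ratio was 1.67 for Vehicle over Matrigel-only and −1.69 for Palo over Vehicle. Within Vehicle the Acan-positive cells had 27.6 CPM (24.9 to 30.5) and the Acan-negative cells 10.4 CPM (8.51 to 12.7), and the latter still stood 1.78 above Matrigel-only on the log2 scale. *Angpt1* was thus highest in the cells with the cartilage gene, but not limited to them. A UMI of it was found in 25.3% of Acan-positive, 10.4% of Acan-negative, 2.45% of Matrigel-only and 3.38% of Palo stromal cells, and after thinning to 3100 UMIs in 7.63%, 3.17%, 0.912% and 0.997%.

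*Angpt2* (chr8:18690263-18741562, minus strand), the context-dependent TIE2 antagonist made mainly by endothelial cells, was near 0 in every stromal class, with 7 Matrigel-only, 13 Vehicle and 9 Palo UMIs, or 0.349, 0.551 and 0.568 CPM. Differences in stroma were not detectable at this depth. Vehicle macrophages had the highest level, 2.65 CPM (1.87 to 3.63, 38 UMIs), against 0.393 CPM in Matrigel-only and 0.729 CPM in Palo. Across the whole Vehicle library 64 *Angpt2* UMIs were counted. Of these, 28 (43.8%) came from 4 cells with at least 3 of 10 endothelial markers, which held 0.216% of all UMIs of the library. One such cell was in the macrophage class with 16 of them, and without it the Vehicle macrophage level was 1.53 CPM (0.962 to 2.32, 22 UMIs). Those 4 cells held 0 UMIs of *Vegfa* and 5 of *Adm*. Matrigel-only had 2 cells that passed the same marker limit, both stromal with no *Pecam1* or *Cdh5*, and Palo had 0.

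*Angptl2* (chr2:33216069-33247717, plus strand), a secreted angiopoietin-like protein that acts through integrins and PIRB, was almost wholly stromal. Stromal cells held 99.0%, 98.0% and 98.0% of its UMIs in Matrigel-only, Vehicle and Palo, while they held 47.4%, 58.7% and 35.4% of all UMIs. Its level was 264 CPM in Matrigel-only (257 to 271), 410 CPM in Vehicle (402 to 418) and 264 CPM in Palo (256 to 272). Vehicle was 1.55-fold above Matrigel-only (log2 0.64, 0.59 to 0.68), and Palo and Matrigel-only differed by a log2 ratio of −0.00 (−0.06 to 0.06). The 2 Vehicle classes had overlapping intervals, at 415 CPM in Acan-positive and 404 CPM in Acan-negative cells, so that the *Angptl2* level followed the library and not the *Acan* split.

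*Angptl4* (chr17:33773750-33781830, minus strand), an inhibitor of lipoprotein lipase that responds to PPAR factors and to hypoxia, ran the other way. Its stromal level was 145 CPM in Matrigel-only (140 to 150), 61.1 CPM in Vehicle (58.0 to 64.4) and 137 CPM in Palo (131 to 143). Vehicle was 2.37-fold below Matrigel-only (log2 −1.25, −1.34 to −1.15), and Palo was 2.24-fold above Vehicle (log2 1.17, 1.07 to 1.26) and close to Matrigel-only (log2 −0.08, −0.16 to 0.00). The lowest level was that of the Acan-positive cells at 43.9 CPM, with 86.0 CPM in Acan-negative cells. This 1.96-fold difference passed 2-fold when an Acan-positive cell had to have 2 or more *Acan* UMIs (log2 −1.14) and when *Acan* was read after thinning (log2 −1.13). Against Matrigel-only, the log2 ratio was −0.75 for Acan-negative and −1.72 for Acan-positive cells. A UMI was found in 53.1%, 38.5% and 57.8% of Matrigel-only, Vehicle and Palo stromal cells, and in 32.0%, 15.3% and 28.3% after thinning.

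*Adm* (chr7:110627661-110629820, plus strand) encodes the peptide adrenomedullin, which widens vessels and is needed for lymphatic growth. Its order was unlike that of *Vegfa*, with 88.6 CPM in Matrigel-only stroma (84.5 to 92.8), 57.7 CPM in Vehicle (54.7 to 60.8) and 31.7 CPM in Palo (29.0 to 34.6). Palo was 2.79-fold below Matrigel-only (log2 −1.48, −1.63 to −1.34) and 1.82-fold below Vehicle (log2 −0.86, −1.01 to −0.71). Within Vehicle the Acan-negative cells were at 64.6 CPM and the Acan-positive cells at 52.9 CPM, both below Matrigel-only and above Palo. The thinned share of cells with a UMI was 18.9% for Matrigel-only, 14.4% for Vehicle and 8.08% for Palo, in the order of the CPM, whereas the unthinned Vehicle share of 38.7% stood above the 33.9% of Matrigel-only.

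**Figure D2:**
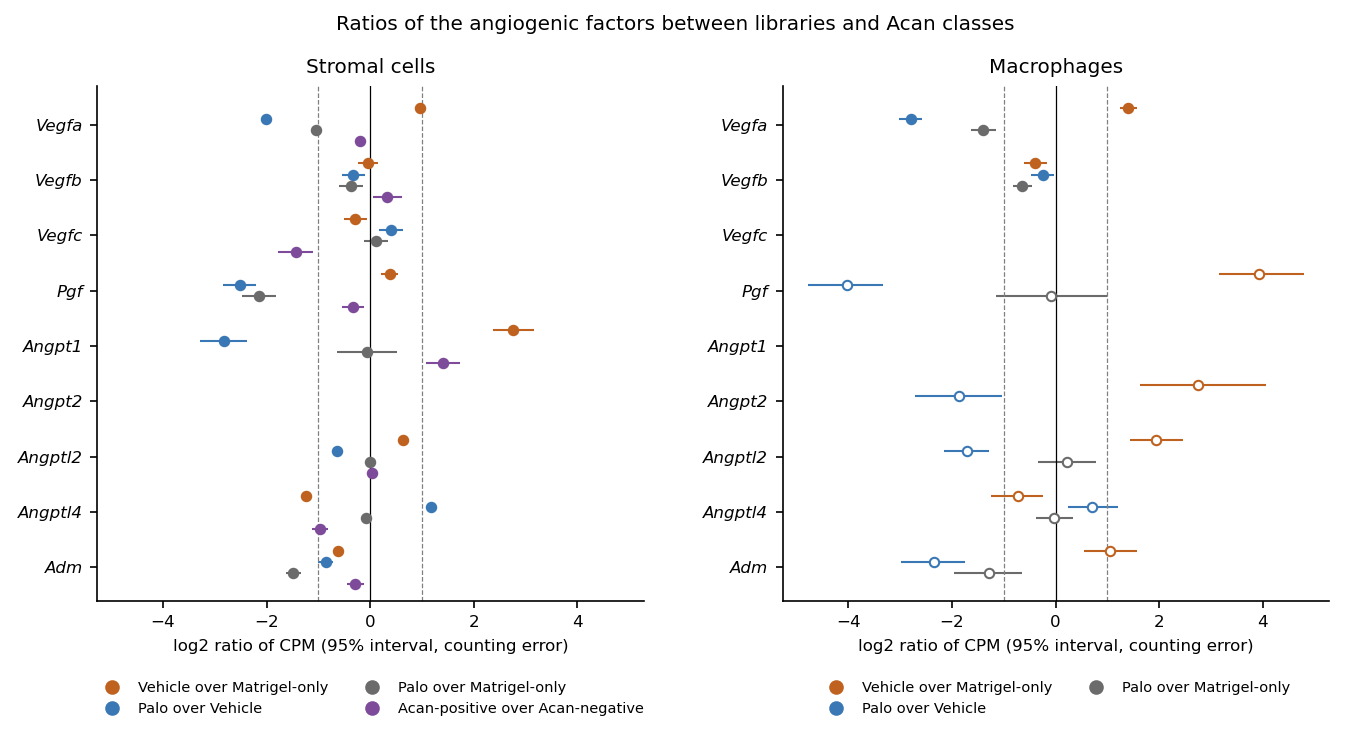
Log2 CPM ratio of each factor in the 7 comparisons, with points for the ratio and bars for the exact 95% interval from counting error. Dashed lines mark 2-fold, open circles are factors below the filter of 5 CPM, and factors with under 30 UMIs over both groups are not drawn. *Vegfa* and stromal *Pgf* lie left of −1 in every comparison of Palo, while stromal *Angptl4* lies at −1.25 for Vehicle over Matrigel-only and at 1.17 for Palo over Vehicle.

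**Figure D3:**
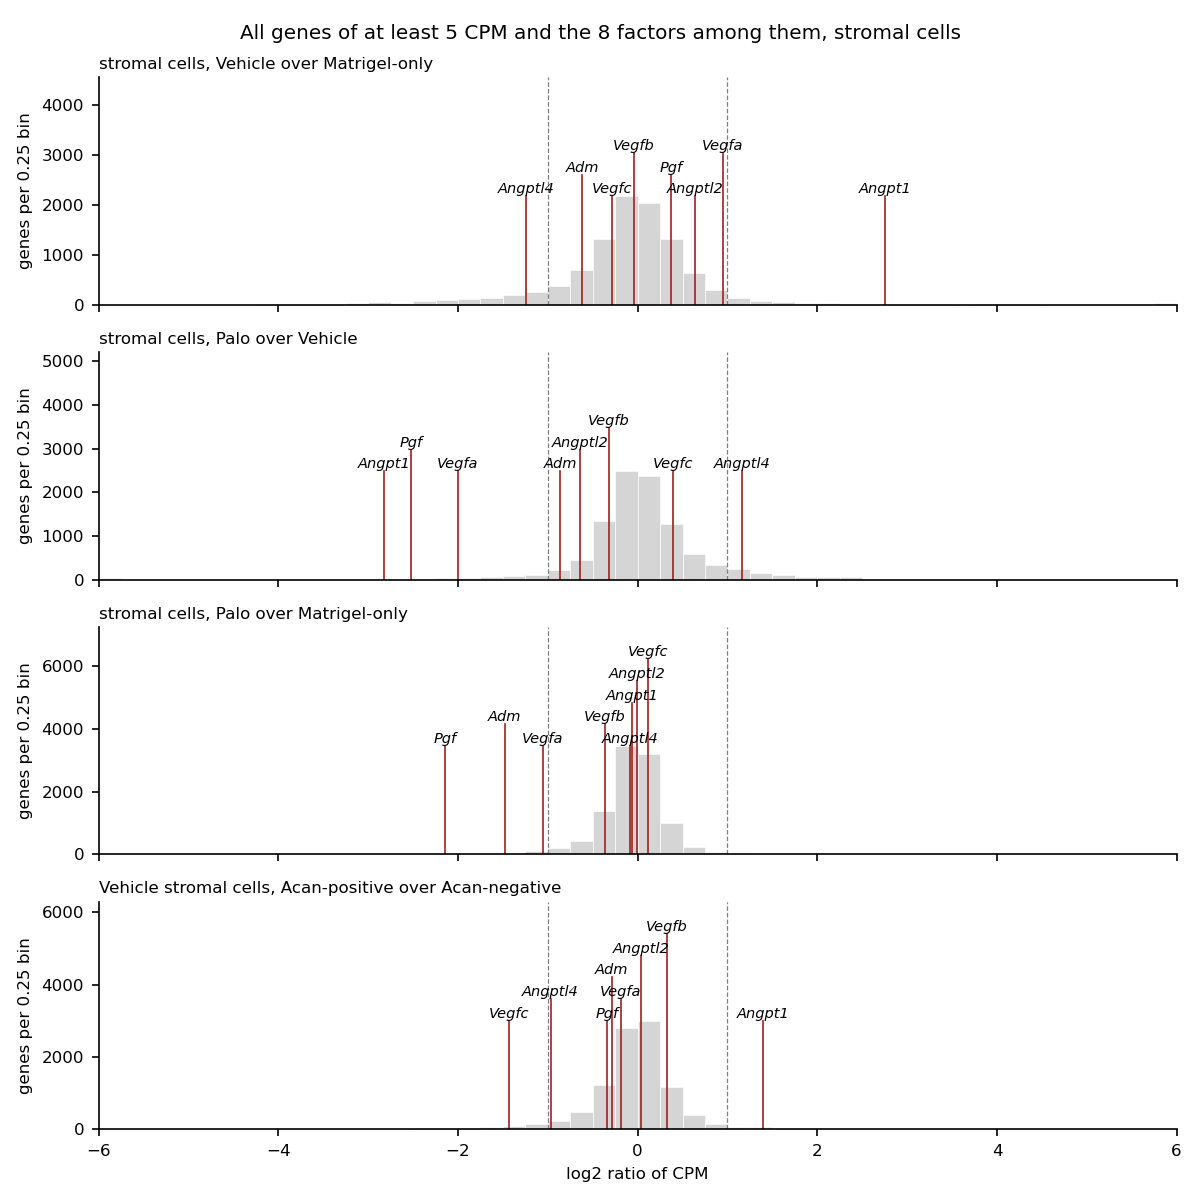
Distribution of the log2 CPM ratio over all genes tested in each of the 4 stromal comparisons, as the number of genes per bin of 0.25, with the 8 tested factors marked by lines whose height only separates the labels and dashed lines at 2-fold. In Palo over Matrigel-only stroma, where 3.05% of genes were past 2-fold, *Vegfa*, *Adm* and *Pgf* lie at −1.05, −1.48 and −2.15.

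In macrophages 2 of the 9 factors, *Vegfa* and *Vegfb*, passed the filter. *Vegfa* was past 2-fold in all 3 comparisons and *Vegfb* in none, which was 1 of 2 each time, where 6.48% of 9551 genes (Vehicle over Matrigel-only), 6.53% of 9551 genes (Palo over Vehicle) and 2.68% of 9548 genes (Palo over Matrigel-only) were past it. The all-gene median was 0.00 in the first of these and −0.17 in both Palo comparisons, so that ratios of Palo macrophages are read relative to −0.17. *Vegfa* was 21.5 CPM in Matrigel-only macrophages (19.5 to 23.6), 56.8 CPM in Vehicle (52.9 to 60.8) and 8.16 CPM in Palo (7.13 to 9.30). Vehicle macrophages were thus highest and Palo lowest, as in the stroma. In Matrigel-only and Palo the share of macrophages with a *Vegfa* UMI was not above that of lymphocyte-marker cells, so that the ratio of Palo to Matrigel-only compares 2 such values. The log2 ratios were 1.40 (1.23 to 1.57) for Vehicle over Matrigel-only, −2.80 (−3.02 to −2.58) for Palo over Vehicle and −1.39 (−1.63 to −1.16) for Palo over Matrigel-only. *Vegfb* was 25.1, 19.2 and 16.1 CPM in the same order, at 126%, 98.9% and 104% of the stromal level of its library, and no other factor had a macrophage level above 34.0% of the stromal level, *Angpt2* aside.

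Macrophage levels were set beside those of *Pdgfra* and *Prrx1*, stromal genes that macrophages are not known to express. These stood in macrophages at 0.838% and 1.26% of their stromal level in Matrigel-only, 2.26% and 1.92% in Vehicle, and 0.622% and 0.725% in Palo. *Angptl2* was at 0.856%, 2.11% and 0.996%, within that range in Matrigel-only and Vehicle and slightly above it in Palo. *Vegfa* was above it in every library, at 14.2%, 19.4% and 11.2%, as was *Angptl4* at 4.00%, 5.70% and 4.15%, though lymphocyte-marker cells had 8.53 CPM of *Angptl4* in Vehicle and 28.2 CPM in Palo (7 and 6 UMIs). The share of macrophages with a *Vegfa* UMI was 6.42%, 17.1% and 3.59%, with median depths of 3090.5, 3646 and 4254 UMIs, and was 2.95%, 8.39% and 1.16% after thinning to 1400 UMIs, which left out 567, 303 and 137 cells. Set against the lymphocyte-marker cells, the Vehicle macrophage share stood above their 3.02%, whereas the Matrigel-only and Palo shares were not above their 14.2% (6.04 to 26.9%) and 1.70% (0.0459 to 9.0%). The lymphocyte-marker cells are an uncertain measure of free RNA. In Matrigel-only they held 14 *Vegfa* UMIs but 0 of *Angptl2*, *Angptl4* and *Adm* (upper limit 20.7 CPM each), and some of them were in the macrophage class. These shares therefore cannot decide whether *Vegfa* in the macrophages of those 2 libraries was free RNA, and this was not tested. The summed level of chondrocyte markers in the macrophage class was 57.7 CPM in Vehicle, 1.72 CPM in Matrigel-only and 1.28 CPM in Palo, and the part of this in the macrophage values was not tested.

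**Figure D4:**
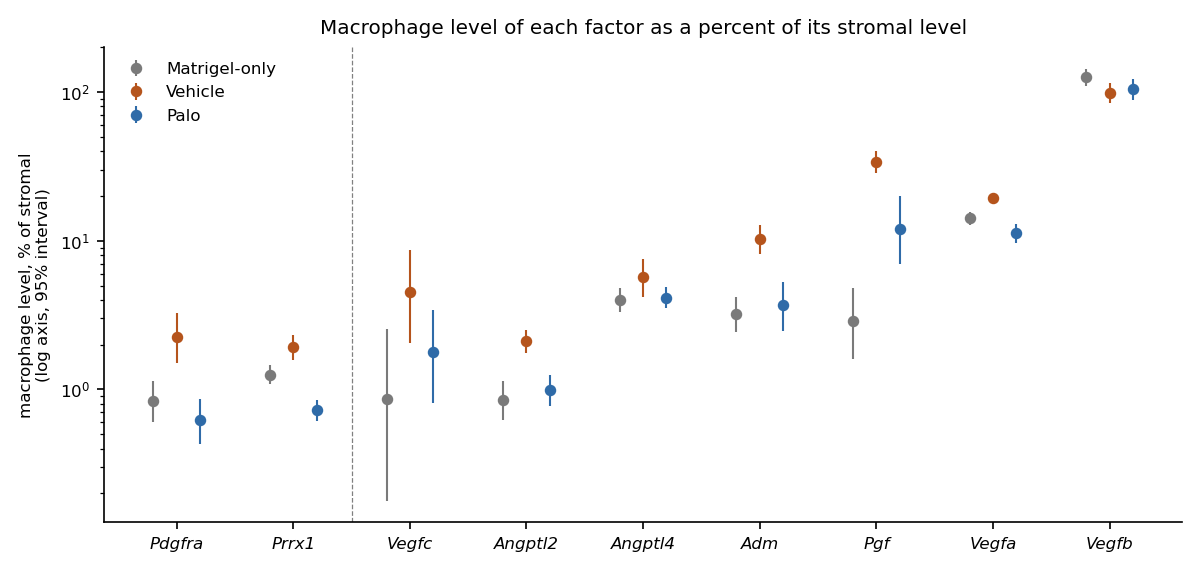
Macrophage level as a percentage of the stromal level of the same library (log axis) for 7 of the factors (*Angpt1* and *Angpt2* are not drawn) and for the stromal genes *Pdgfra* and *Prrx1*, with bars for the exact 95% interval. *Vegfb* lies near 100%, *Vegfa* between 11.2% and 19.4%, and *Pgf* is highest in Vehicle, at 34.0%.

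Below the filter, *Pgf* stood out in Vehicle macrophages, at 11.2 CPM (9.55 to 13.1, 161 UMIs) against 0.737 CPM in Matrigel-only (15 UMIs) and 0.692 CPM in Palo (19 UMIs). The log2 ratio was 3.93 (3.16 to 4.80) for Vehicle over Matrigel-only. This level was 34.0% of that in Vehicle stroma, and lymphocyte-marker cells of the same library had 1.22 CPM (0.0309 to 6.79). A *Pgf* UMI was found in 99 Vehicle macrophages (3.04%, or 1.33% after thinning). *Adm* was 5.92 CPM in Vehicle, 2.85 CPM in Matrigel-only and 1.17 CPM in Palo macrophages, and *Angptl4* was 5.79, 3.48 and 5.68 CPM in Matrigel-only, Vehicle and Palo. *Angptl2* was 8.64 CPM in Vehicle macrophages but 43.9 CPM in Vehicle lymphocyte-marker cells. In Matrigel-only it was 2.26 CPM in macrophages (46 UMIs). Lymphocyte-marker cells there had 0 UMIs out of 178106, with an upper limit of 20.7 CPM, too few to compare. Whether its macrophage level was free RNA was not tested. *Angpt1* had 5, 4 and 1 UMIs and *Vegfc* 3, 9 and 9 UMIs in the macrophages of Matrigel-only, Vehicle and Palo, too few to compare.

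Macrophages were further divided by which of 3 lists of state genes gave the most UMIs in a cell. *Vegfb* was higher where *Ms4a7*, *Stab1*, *Ccl12* and *Ccl8* led, at 39.2, 24.6 and 27.7 CPM in Matrigel-only, Vehicle and Palo, than where *Hal*, *Ltc4s*, *Retnla* and *Arg1* led, at 9.98, 12.7 and 6.75 CPM. In the Vehicle library *Vegfa* was ordered differently, with 89.2 CPM in the *Hal*/*Retnla* cells, 51.1 CPM in the *Ms4a7*/*Stab1* cells and 28.1 CPM where *Mmp12*, *Ear2*, *Dcstamp* and *Itgax* led. Its levels lay closer together in Matrigel-only, at 24.5, 17.7 and 22.0 CPM in the same 3 states, and in Palo, at 8.97, 6.91 and 8.59 CPM. Macrophages with none of these states leading had 43.2 CPM in Matrigel-only, 49.1 CPM in Vehicle and 12.3 CPM in Palo. Vehicle *Pgf* was 14.1, 12.5 and 5.03 CPM in the 3 states in that order.

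Each library's stromal cells and macrophages of at least the thinning depth were then ordered by the share of their UMIs that came from 19 HIF target genes outside the 9 factors, such as *Slc2a1* (a glucose transporter) and *Pgk1* (a glycolytic enzyme), and cut into 3 equal parts. Cells of 1 library are not replicates, and the parts are described without a test. *Vegfa* was higher in the highest part than in the lowest in all 7 groups. In stroma the levels went from 62.2 to 256 CPM in Matrigel-only, from 60.5 to 605 CPM in Vehicle Acan-negative, from 114 to 471 CPM in Acan-positive and from 49.4 to 91.6 CPM in Palo cells. The ratio of highest to lowest part was thus 4.11, 10.0, 4.12 and 1.86, and was smallest in Palo. The HIF list itself went from 1052 to 7596 CPM in Matrigel-only and from 1486 to 5623 CPM in Palo stroma, a narrower range in Palo, while median UMIs per cell went from 8128 to 11845.5 and from 10821 to 15545.5. In macrophages *Vegfa* went from 3.21 to 47.8 CPM in Matrigel-only, from 8.63 to 122 CPM in Vehicle and from 4.05 to 12.9 CPM in Palo.

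*Pgf* followed the HIF genes most steeply in the Vehicle library, from 6.33 to 85.9 CPM in Acan-negative and from 1.55 to 80.0 CPM in Acan-positive stroma (7 against 370 UMIs) and from 3.08 to 22.5 CPM in macrophages. In Matrigel-only stroma it went from 16.2 to 45.8 CPM, and in Palo stroma from 9.13 down to 4.64 CPM (39 against 28 UMIs). *Adm*, whose promoter window above holds 2 core motifs, had 3.19-fold more in the highest than in the lowest part of Acan-negative and 5.33-fold more in Acan-positive Vehicle cells. In Matrigel-only and Palo stroma the *Adm* ratio was 0.742 and 0.613, in the opposite direction. In stroma the direction for *Pgf* and *Adm* therefore differed between libraries, and this difference was not tested. In macrophages, where *Adm* was below the filter, its ratio was above 1 in all 3, at 4.60 (Matrigel-only), 12.6 (Vehicle) and 3.18 (Palo). The lowest against the highest part held few UMIs, 7 against 37, 5 against 57 and 4 against 17 in the same order. *Angptl4* was lower in the highest part of all 4 stromal groups, with ratios of 0.517, 0.707, 0.542 and 0.615 for Matrigel-only, Acan-negative, Acan-positive and Palo. *Vegfb*, whose window also holds 2 core motifs, had ratios between 0.947 and 1.16 in the stromal groups.

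**Figure D5:**
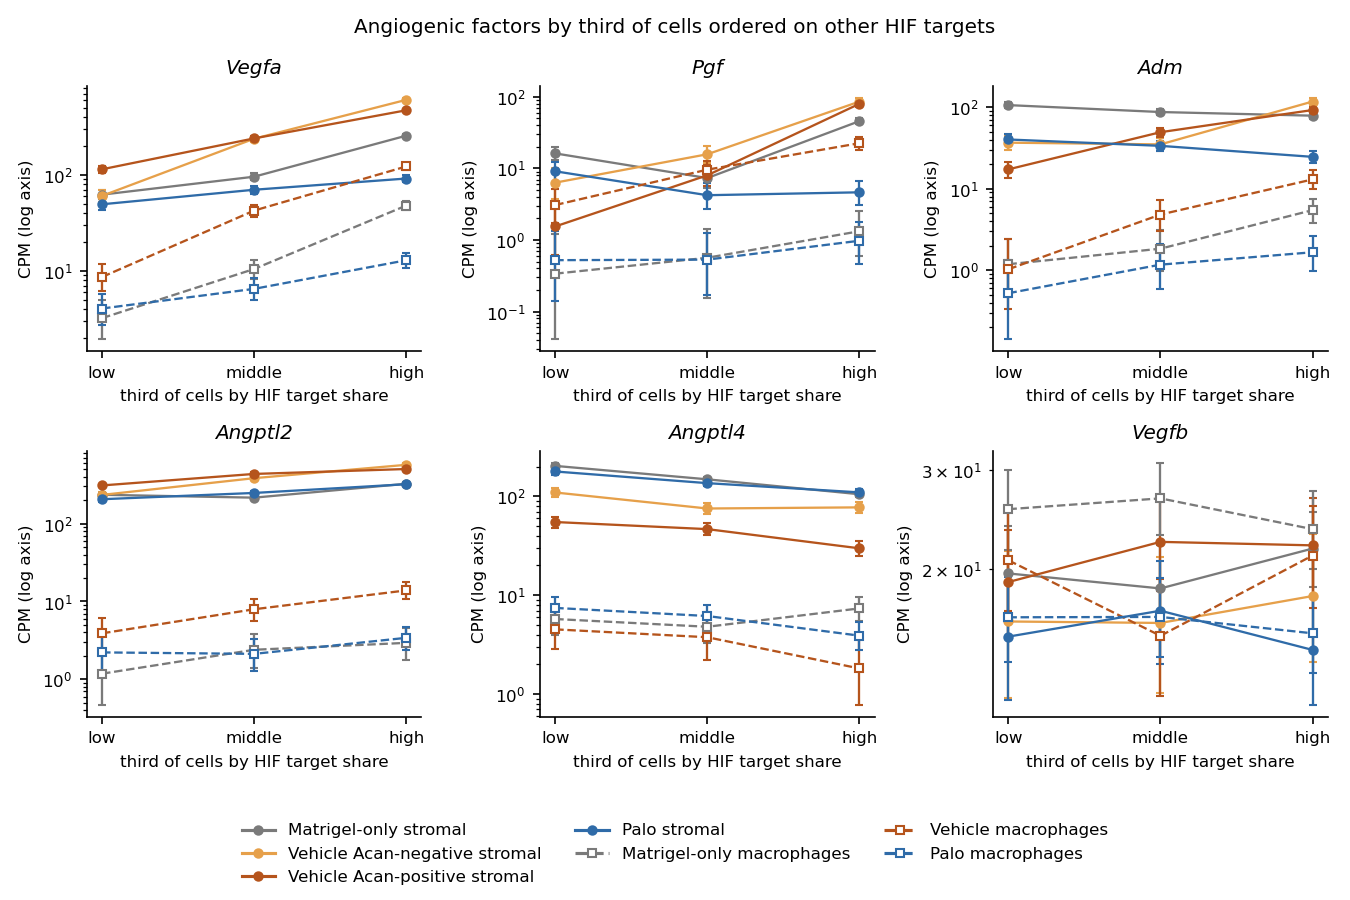
Level of 6 factors in CPM (log axes) in the low, middle and high part of 3 equal parts of cells ordered by the UMI share of 19 other HIF target genes, for stromal cells (solid lines) and macrophages (dashed lines) with exact 95% Poisson intervals. *Vegfa* lines slope upward in every group and least in Palo stroma, from 49.4 to 91.6 CPM, *Pgf* and *Adm* slope upward in Vehicle stroma, and *Angptl4* lines slope downward in stroma.

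When cells were instead ordered by 8 PPAR target genes, *Angptl4* was at most 1.23-fold higher in the highest than in the lowest part of a stromal group. The ratios were 1.15, 1.02, 1.13 and 1.23 for Matrigel-only, Acan-negative, Acan-positive and Palo. The lowest against the highest part held 895 against 1018, 281 against 295, 193 against 225 and 639 against 738 UMIs in the same order. In Acan-negative and Acan-positive Vehicle cells the PPAR order gave ratios of 2.13 and 2.27 for *Vegfa*. They were 4.22 and 16.6 for *Pgf*, and 1.01 and 0.933 for *Vegfb*. *Hilpda* had the most UMIs of the 8 genes in Vehicle stroma (3219). Its log2 ratio was 0.87 for Vehicle over Matrigel-only and −1.85 for Palo over Vehicle, the directions of the HIF medians below. Whether the order reflects PPAR activity was not tested. In macrophages the *Angptl4* ratios were 2.58, 3.95 and 2.12 for Matrigel-only, Vehicle and Palo, on 21 against 63, 7 against 27 and 29 against 75 UMIs.

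The stromal cells were also divided by *Pi16*, a marker of universal fibroblast progenitors, which was detected in 1153 Matrigel-only, 167 Vehicle and 368 Palo cells. *Vegfa* was lower in Pi16-positive than in Pi16-negative cells of Matrigel-only, at 99.3 and 201 CPM, and of Vehicle, at 153 and 308 CPM, with 64.1 and 75.9 CPM in Palo. *Adm* was the reverse, at 103 and 74.2 CPM in Matrigel-only, 79.2 and 55.2 CPM in Vehicle and 60.3 and 21.6 CPM in Palo. *Pgf* was lower in Pi16-positive cells of Matrigel-only, at 19.0 and 31.7 CPM, and of Vehicle, at 8.08 and 35.9 CPM. It was higher in those of Palo, at 14.5 and 2.65 CPM. The low Palo levels of *Vegfa* were thus present in both kinds of cell, whereas those of *Pgf* were lowest in the Pi16-negative cells. *Angptl4* was higher in Pi16-positive cells of each library, at 155 and 135 CPM in Matrigel-only, 103 and 56.2 CPM in Vehicle, and 166 and 127 CPM in Palo. *Vegfc* was lower in them, at 12.4 and 21.4, 5.25 and 14.9, and 12.1 and 20.5 CPM in the same order.

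The receptors of these ligands were low or moderate in stroma. Counts past 2-fold are read against the all-gene shares given above, 14.5% for Vehicle over Matrigel-only, 12.0% for Palo over Vehicle and 3.05% for Palo over Matrigel-only. Of the 5 VEGF receptor and co-receptor genes 3 passed the filter between Vehicle and Matrigel-only stroma, with the co-receptor *Nrp2* higher (32.7 to 172 CPM), *Kdr* lower (17.8 to 2.54 CPM) and a median log2 ratio of −0.29. *Tek*, the receptor of both angiopoietins, was 39.1 CPM in Matrigel-only, 2.37 CPM in Vehicle and 22.1 CPM in Palo stroma, the reverse of *Angpt1*. All 3 tested genes of the adrenomedullin receptor list were past 2-fold lower in Vehicle than in Matrigel-only (median −2.16), among them *Ramp2*, at 94.6, 18.9 and 52.3 CPM in Matrigel-only, Vehicle and Palo, and the decoy receptor *Ackr3*, at 311, 69.6 and 214 CPM. Palo stood above Vehicle past 2-fold in 2 of these 3 (median 1.47) and in *Tek* (3.22). Between Palo and Matrigel-only 0 of the 3 VEGF receptor, 0 of the 3 adrenomedullin receptor and 0 of the 1 TIE receptor genes tested were past 2-fold, with medians of −0.24, −0.59 and −0.82. The 10 endothelial markers summed to 62.2, 13.5 and 42.3 CPM in stroma, a list that includes *Kdr* and *Tek* themselves. Of the others, *Emcn* was at 0 in Matrigel-only and Palo and *Cldn5* at 0 in Vehicle stroma. *Pecam1* had 15, 19 and 12 UMIs and *Egfl7* 64, 125 and 60 UMIs in Matrigel-only, Vehicle and Palo. The part of endothelial RNA in the stromal receptor values was not tested.

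In macrophages *Flt1*, the receptor of *Vegfa*, *Vegfb* and *Pgf*, was 47.0 CPM in Vehicle (43.5 to 50.7, 675 UMIs) against 0.688 CPM in Matrigel-only (14 UMIs) and 1.09 CPM in Palo (30 UMIs), a log2 ratio of 6.10 for Vehicle over Matrigel-only and of −5.43 for Palo over Vehicle. It was detected in 323 Vehicle macrophages (9.93%, or 4.64% after thinning), in 11 Matrigel-only and in 24 Palo macrophages. Lymphocyte-marker cells that had no macrophage marker held 0 *Flt1* UMIs, in 88, 234 and 69 cells. The *Flt1* level of Vehicle macrophages was 93.4 CPM in the *Hal*/*Retnla* state, 87.2 CPM in the *Mmp12*/*Itgax* state and 12.7 CPM in the *Ms4a7*/*Stab1* state. Among the macrophages of the 3 libraries, the ligand *Pgf* and this receptor were thus both highest in Vehicle. *Pgf* was higher still in Vehicle stroma, at 33.0 CPM. Of the 99 macrophages with a *Pgf* UMI, 21 also had one of *Flt1*, but after thinning their share was 7.92% (3.43 to 15.1%) against 4.64% (3.91 to 5.46%) of all Vehicle macrophages, with overlapping intervals. The summed endothelial list was 58.4 CPM in Vehicle macrophages, 11.1 CPM in Matrigel-only and 7.76 CPM in Palo. Of this, *Pecam1*, which macrophages also express, made up 44.7 CPM in Vehicle. The 1 Vehicle cell of the macrophage class with at least 3 endothelial markers held 15 of the 675 *Flt1* UMIs and 35 of *Pecam1*. The part of any other endothelial RNA in the *Flt1* level was not tested.

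Of the other ligands of these families, 3 of 9 passed the filter in stroma. *Adm2*, a peptide related to *Adm*, was 8.38 CPM in Matrigel-only, 23.4 CPM in Vehicle and 1.14 CPM in Palo, in the order of *Vegfa* and not of *Adm*. *Vegfd*, a lymphatic growth factor, was 105, 27.0 and 54.3 CPM, and *Angptl1* was 42.8, 7.50 and 33.6 CPM, both lowest in Vehicle. Partners of the angiopoietin-like proteins were past 2-fold lower in 2 of 4 tested genes between Vehicle and Matrigel-only stroma (median −1.05), led by *Lpl*, the lipase that *Angptl4* blocks, at 494, 66.4 and 223 CPM in Matrigel-only, Vehicle and Palo. Against the same 14.5% of all genes, secreted inhibitors of vessel growth gave 1 higher and 1 lower of 5, *Thbs1* (220 to 522 CPM) and *Timp3* (646 to 270 CPM), with a median of −0.10. The 19 HIF targets had a stromal median of 0.82 with 5 past 2-fold higher and none lower for Vehicle over Matrigel-only, where 14.5% of all genes were past it. The median was −1.50 with 13 lower for Palo over Vehicle, against 12.0%, and −0.46 with 4 lower for Palo over Matrigel-only, against 3.05%. Their macrophage medians were 0.68, −1.04 and −0.61 in the same order. Of 6 tested PPAR targets 3 were lower past 2-fold and none higher for Vehicle over Matrigel-only stroma (median −0.89, against 14.5%). Among them was *Fabp4*, at 57.9 CPM in Matrigel-only, 13.4 CPM in Vehicle and 1.96 CPM in Palo. For Palo over Vehicle 2 were higher and 2 lower (median −0.23, against 12.0%). For Palo over Matrigel-only 0 were higher and 1 lower (median −0.73, against 3.05%).

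The genes whose log2(CPM + 5) was most like that of a factor across the 7 groups of cells were found among 8370 genes. The groups shared libraries, and Pearson's r over 7 points is given as a description. Nearest to *Vegfa* were *Faap20* (0.995), *Alg9* (0.994) and *Alg3* (0.994). *Pgf* was nearest to *Mfsd10* (0.976), *Faap20* (0.975) and *Hilpda* (0.971), and *Pgf* and *Vegfa* had an r of 0.960. Other pairs of factors were as alike, with 0.974 for *Vegfc* and *Angptl4* and 0.965 for *Angptl2* and *Adm*. *Angptl2* and *Angptl4*, whose stromal levels ran opposite ways between libraries, still had 0.918. *Angpt1* was nearest to *Actr3b* (0.995), *Plod3* (0.993) and *Foxc1* (0.993), and *Vegfc* to *Tspan18* (0.999). *Angptl2* had the collagen-associated *Aebp1* and *Angptl4* had *Plat* and *Slit3* among their 3 nearest, all at 0.999. *Adm* was nearest to *Naa35* (0.989), *Tmem115* (0.989) and *Nrip1* (0.988), and *Vegfb* to *Gtf3c2* (0.954), below the values of the other factors named here.

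Cells with a UMI of a factor, weighted by the chance of a UMI at the thinning depth, were compared with the cells of the same library without one. The genes that led in all 3 libraries are named here after their values were seen. In stromal cells with *Vegfa*, the metallothionein *Mt1* was higher by log2 ratios of 1.83, 0.95 and 0.74 in Matrigel-only, Vehicle and Palo, and *Ddit4*, a HIF target, by 1.50, 1.08 and 0.73. Cells with *Adm* had more *Svep1* (1.40, 1.28 and 1.29) and more *Vegfd* (1.44, 1.14 and 1.32), the other lymphatic ligand named above. Cells with *Angptl4* had more *Cxcl14* (1.13, 1.29 and 1.40) and those with *Vegfc* more of the chemokine gene *Ccl2* (1.16, 1.52 and 1.87). In macrophages with *Vegfa*, *Mt2* (1.56, 1.31 and 1.19) and *Slc2a1* (1.24, 1.05 and 0.93) were higher. Vehicle macrophages with *Pgf* had more *Ccl5* (2.67), *Ddx4* (2.61), *Chil3* (2.57) and *Il10* (2.44). These *Pgf* values rest on a weighted number of 39.2 cells in Vehicle, and Matrigel-only and Palo gave no value.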

How the data were processed

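Per the labels and the submitters' processing notes, the authors aligned reads to mm10 and counted UMIs with Cell Ranger 3.0.2 and named Seurat 3. The deposited matrices hold raw UMI counts of 31053 genes (36 repeated symbols, rows summed) per barcode for 3 libraries of 1 group each, with 0 sample columns unused. Cells with 200 to 6000 genes and at most 5% mitochondrial UMIs were kept, so the gene maximum was the only limit on doublets. Counts were summed per class and given as CPM with exact Poisson intervals, shares with exact binomial (Clopper-Pearson) and ratios with exact conditional binomial intervals. With 1 library per group no count model was fitted. A count of 0 was set to 3 counts for a ratio. Scripts were tested on simulated data. All 9 factors were named in every comparison, of each pathway list at most the 2 largest ratios in each direction, and the 3 most alike genes. The factors, lists and splits were chosen with earlier results of these data known. The splits by *Pi16*, macrophage state and PPAR targets, the ratios of the *Acan* classes to other libraries, the cell partners, the endothelial cells and *Flt1* were added after seeing the data. Positions were from GENCODE vM21 on mm10. There were 11 alternatives, with TMM factors from edgeR 4.0.16 in R 4.3.3. Python 3.11.15, matplotlib 3.10.9, pandas 2.3.3, scipy 1.17.1 and numpy 2.4.6 were used.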

Additional observations from a re-analysis of the deposited data

Results flagged for a closer look

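The ratio of Vehicle to Matrigel-only had opposite directions in stromal cells and macrophages for a pair of factors. *Vegfc* had a log2 ratio of −0.29 in stroma and 2.09 (0.09 to 4.61) in macrophages, the latter on 9 against 3 UMIs, and *Adm* had −0.62 in stroma and 1.06 (0.56 to 1.56) in macrophages, on 85 against 58 UMIs and below the filter of 5 CPM. The difference between the classes was not tested, since each class had 1 library per group.

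The cells that were in neither class (831 in Matrigel-only and 852 in Vehicle), of which 88 and 234 served as lymphocyte-marker cells, entered no comparison between libraries. In Vehicle they held *Pgf* at 8.96 CPM (20 UMIs), *Angpt2* at 5.82 CPM (13 UMIs) and *Angptl2* at 31.3 CPM (70 UMIs), above the 2.08, 0 and 3.64 CPM of Matrigel-only. Of the 13 *Angpt2* UMIs, 12 were in 1 cell with endothelial markers.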

How the results depend on the processing

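The 11 alternatives were another mitochondrial limit (10%), TMM scaling, a mean over cells, 5 CPM added to both groups, no filter or a filter of 20 CPM, a 2% matrix limit, mixed cells left out, 2 *Acan* splits and a stricter macrophage class. Of 61 counts of factors past 2-fold, 54 stayed within 1.5 times the reported count. With a filter of 20 CPM, which *Angpt1* among others did not pass, the stromal count was 1 (reported 2) for Vehicle over Matrigel-only. It was 0 (reported 2) for the *Acan* split. In macrophages (reported 1 each) the counts without a filter were 6, 6 and 4 for Vehicle over Matrigel-only, Palo over Vehicle and Palo over Matrigel-only, and with the 2% limit 2 and 2 for the first and second of these. Of 250 single ratios, 226 moved by less than their counting interval, 24 moved further, and 0 of those past 2-fold changed sign. Ratios near 0 did so for *Vegfb* in Vehicle over Matrigel-only stroma (−0.04, and 0.03 with TMM), and in Palo over Matrigel-only stroma for *Angptl2* (−0.00, and 0.03 with TMM) and *Angpt1* (−0.07, and 0.21 with the mean over cells). With 5 CPM added, some stromal CPM ratios were smaller by over 1.5 times, before taking log2, and stayed past 2-fold. These were *Angpt1* (log2 1.67 for Vehicle over Matrigel-only, −1.69 for Palo over Vehicle) and *Pgf* (log2 −1.82 for Palo over Vehicle, −1.50 for Palo over Matrigel-only). *Vegfa* in stroma passed 2-fold for Vehicle over Matrigel-only with TMM (log2 1.02) and with the mean over cells (1.09), and fell short of it for Palo over Matrigel-only with the mean over cells (−0.91); the cause was not tested. TMM moved the median of all genes by 0.20 and 0.18 in the 2 Palo comparisons of macrophages. Leaving out a library was not possible. No paired analysis was possible because each group has 1 library. In macrophages 7 of the 9 factors were too shallow to pass the filter.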
